A study of Homo sapiens with 18 samples.

Results

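The genes described here encode the machinery that carries a cell through mitosis and cytokinesis. They are 56 genes, taken by symbol from the 62710 genes of the deposited count table, and all 56 were among the 17030 genes with enough reads to be tested. They fall into 11 roles, from the cyclins that start mitosis to the proteins that separate the daughter cells. Spheroids of MDA-MB-231 cells gave 18 polyA libraries, 3 for each of 6 groups. MDA-MB-231 is an established triple-negative breast cancer line, and the study compares spheroids with and without MMP14, a metalloproteinase held in the cell membrane that cuts collagen. MMP14-KO spheroids (KO) and Wildtype spheroids (WT) were collected at 3 points: from hanging droplets, where they had formed over 5 days, at 24 h after embedding in a collagen hydrogel, and at 48 h after it. A spheroid started from 2000 cells, and a sample pooled 100000 cells. Gels were dissolved with 2 mg/ml collagenase at 37 °C, whereas droplet spheroids were only washed off the plate. Between droplets and collagen, the gel, the added culture time and the digestion cannot be told apart, while both collagen times shared the digestion. The sources used here do not say how MMP14 was disrupted, whether KO cells are 1 clone or a pool, or whether libraries of a group came from separate cultures. The p-values therefore measure the spread between these libraries, which may be technical.

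Mitosis begins when the kinase CDK1, bound to a B-type cyclin, is switched on by CDC25 phosphatases. Chromosomes then condense and attach through kinetochores to spindle microtubules, and a checkpoint holds the cell until the anaphase-promoting complex, with CDC20, destroys securin and cyclin B. A central spindle and a contractile ring finally divide the cytoplasm. Most of these genes are transcribed mainly in G2 and M phase, under MYBL2 (B-MYB) with the MuvB complex and then under FOXM1. Their promoters are known for the cell cycle genes homology region, a short element bound by MuvB, and for CCAAT boxes, bound by the factor NF-Y. Proliferation is commonly read from several of them, MKI67 above all, in breast tumours and their cell lines.

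The promoters of 48 of the 56 genes were available from RefSeq (GRCh38.p14) as the 250 bases before an annotated start. PBK, AURKA, BUB3, TTK, UBE2C, BIRC5, TPX2 and FOXM1 had no entry. The letters TTTGAA, the usual form of the homology region, were found on either strand in 26 of the 48 genes (54.2%), against 16.1% of 27305 genes with a promoter in the same table. The letters CCAAT, on either strand, were found in 38 of 48 (79.2%), against 37.0% of all genes, and at least 2 copies in 25 (52.1%), against 11.49%. Both motifs were found in 23 genes (47.9%), against 5.79% of all. The count of TTTGAA depended on the window. Counted by promoter, 28 of 58 held TTTGAA in the 250 bases (48.3%, against 13.3% of all 35116 promoters). With the 50 bases after the start added, 39 of 58 held it (67.2%, against 15.2%). These are matches of letters, not measured sites. The 5 promoters printed here were chosen after values were seen, to span the courses over time described further on, among windows that hold little or none of the gene's own annotated exons. Capitals mark TTTGAA and CCAAT or their reverse complements TTCAAA and ATTGG, and positions count back from -1, the base before the start. NEK2, a centrosome kinase, lies at chr1:211675622-211675871 on the minus strand and holds CCAAT at -66 and -34. CDC20 lies at chr1:43358731-43358980 on the plus strand, with TTTGAA at -178 and -65 and CCAAT at -100 and -55. KIF11, the motor that pushes spindle poles apart, lies at chr10:92592880-92593129 on the plus strand, with TTTGAA at -28 and CCAAT at -53. MKI67, which coats mitotic chromosomes, lies at chr10:128126424-128126673 on the minus strand, with TTTGAA at -47 and -29 and CCAAT at -98 and -24, where the copy at -24 overlaps the TTTGAA at -29. KIF2C, a kinesin that takes microtubules apart, lies at chr1:44739587-44739836 on the plus strand and holds neither set of letters in this window.
NEK2: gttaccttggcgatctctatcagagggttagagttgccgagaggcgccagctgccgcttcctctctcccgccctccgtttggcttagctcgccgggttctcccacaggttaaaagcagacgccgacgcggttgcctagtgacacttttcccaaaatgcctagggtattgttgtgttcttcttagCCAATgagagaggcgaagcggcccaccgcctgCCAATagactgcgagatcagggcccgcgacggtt
CDC20: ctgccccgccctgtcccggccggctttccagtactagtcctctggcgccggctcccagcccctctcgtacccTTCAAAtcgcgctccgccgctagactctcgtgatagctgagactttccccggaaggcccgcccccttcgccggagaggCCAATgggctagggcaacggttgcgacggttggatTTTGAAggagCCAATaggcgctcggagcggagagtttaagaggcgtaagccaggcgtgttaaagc
KIF11: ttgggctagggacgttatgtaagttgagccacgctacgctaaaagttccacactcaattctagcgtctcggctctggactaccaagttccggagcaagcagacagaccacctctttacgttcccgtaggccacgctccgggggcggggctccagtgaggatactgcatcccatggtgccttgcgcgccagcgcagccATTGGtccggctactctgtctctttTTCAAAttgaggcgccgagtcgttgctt
MKI67: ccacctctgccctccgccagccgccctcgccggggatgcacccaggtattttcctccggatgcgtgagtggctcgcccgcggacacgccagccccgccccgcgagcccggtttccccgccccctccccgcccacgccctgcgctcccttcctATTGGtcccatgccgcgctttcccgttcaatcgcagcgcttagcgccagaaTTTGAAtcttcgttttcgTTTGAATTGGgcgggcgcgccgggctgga
KIF2C: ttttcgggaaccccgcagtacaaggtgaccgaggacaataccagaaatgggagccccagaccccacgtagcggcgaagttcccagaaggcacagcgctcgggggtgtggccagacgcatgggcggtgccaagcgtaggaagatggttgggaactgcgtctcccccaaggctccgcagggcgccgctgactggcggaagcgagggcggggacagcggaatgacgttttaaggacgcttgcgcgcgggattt

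Library totals ranged from 19819401 to 33352163 counts. MMP14 stood at 166, 151 and 143 CPM (read counts scaled to a common library size, with TMM factors) in KO spheroids at 24 h, against 1976, 1767 and 1713 CPM in WT, and its log2 fold change was -3.73 in droplets, -3.57 at 24 h and -3.29 at 48 h. All 6 markers of a mesenchymal breast line were expressed in every group, 4 of 7 luminal markers were under 1 CPM, and 5 of 6 leukocyte markers were under 1 CPM. Leukocyte markers still summed to 87.3 to 132 CPM in KO and 97.3 to 120 CPM in WT, almost wholly from the remaining marker. Luminal markers summed to 277 to 342 CPM in KO and 361 to 433 CPM in WT in droplets, to 435 to 475 CPM in KO and 481 to 513 CPM in WT at 24 h, and to 403 to 467 CPM in KO and 466 to 514 CPM in WT at 48 h. Endothelial markers summed to 37.8 to 52.1 CPM in KO libraries and to 17.9 to 37.7 CPM in WT libraries, and fibroblast markers to 33.8 to 59.6 CPM in KO and 37.4 to 59.4 CPM in WT. The part of these lists in the results was not tested. Some libraries stood apart from their group in the summed level of the 56 genes. KO droplet replicate 2 had 3417 CPM, against 4135 and 4709 CPM in the other KO droplet libraries, and its mitochondrially encoded share was 0.761% of counts, against 1.39% and 1.20%. WT 24 h replicate 1 had 4399 CPM, against 5884 and 5722 CPM in the other WT 24 h libraries. The results that change without these libraries are given with and without them.

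In KO spheroids the mitotic genes were lower than in WT at both times in collagen, while few passed the test in droplets. At 24 h 55 of the 56 genes were lower in KO and 0 were higher, by edgeR's quasi-likelihood test with Benjamini-Hochberg adjustment, against 15.7% of all genes tested called lower. The median log2 fold change over the 56 was -0.74, and it was 0.00 over all genes. At 48 h 47 were lower and 0 higher, against 15.1% of all genes lower, with a median of -0.52. In droplets 2 were lower and 0 higher, against 9.70% of all genes lower, with a median of -0.12. In that comparison 6 were lower at an unadjusted p under 0.05, beside 15.9% of all genes. DESeq2 called 4 of the 56 lower, and 3005 of all genes in either direction. None of the 56 was higher in KO in any condition by DESeq2 or at an unadjusted p under 0.05. In bulk RNA, fewer cells in mitosis and less RNA per such cell cannot be told apart. All 3 KO libraries lay under all 3 WT libraries in 55 genes at 24 h, against 23.2% of all genes, and in 55 genes at 48 h, against 20.8%. CDC25B was the exception at both times. The count at 48 h became 23 without WT 48 h replicate 3 and 28 without KO 48 h replicate 2, and it was 54 without WT 24 h replicate 1. At 24 h the count stayed between 47 and 55 with each library left out in turn.

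**Figure D1:**
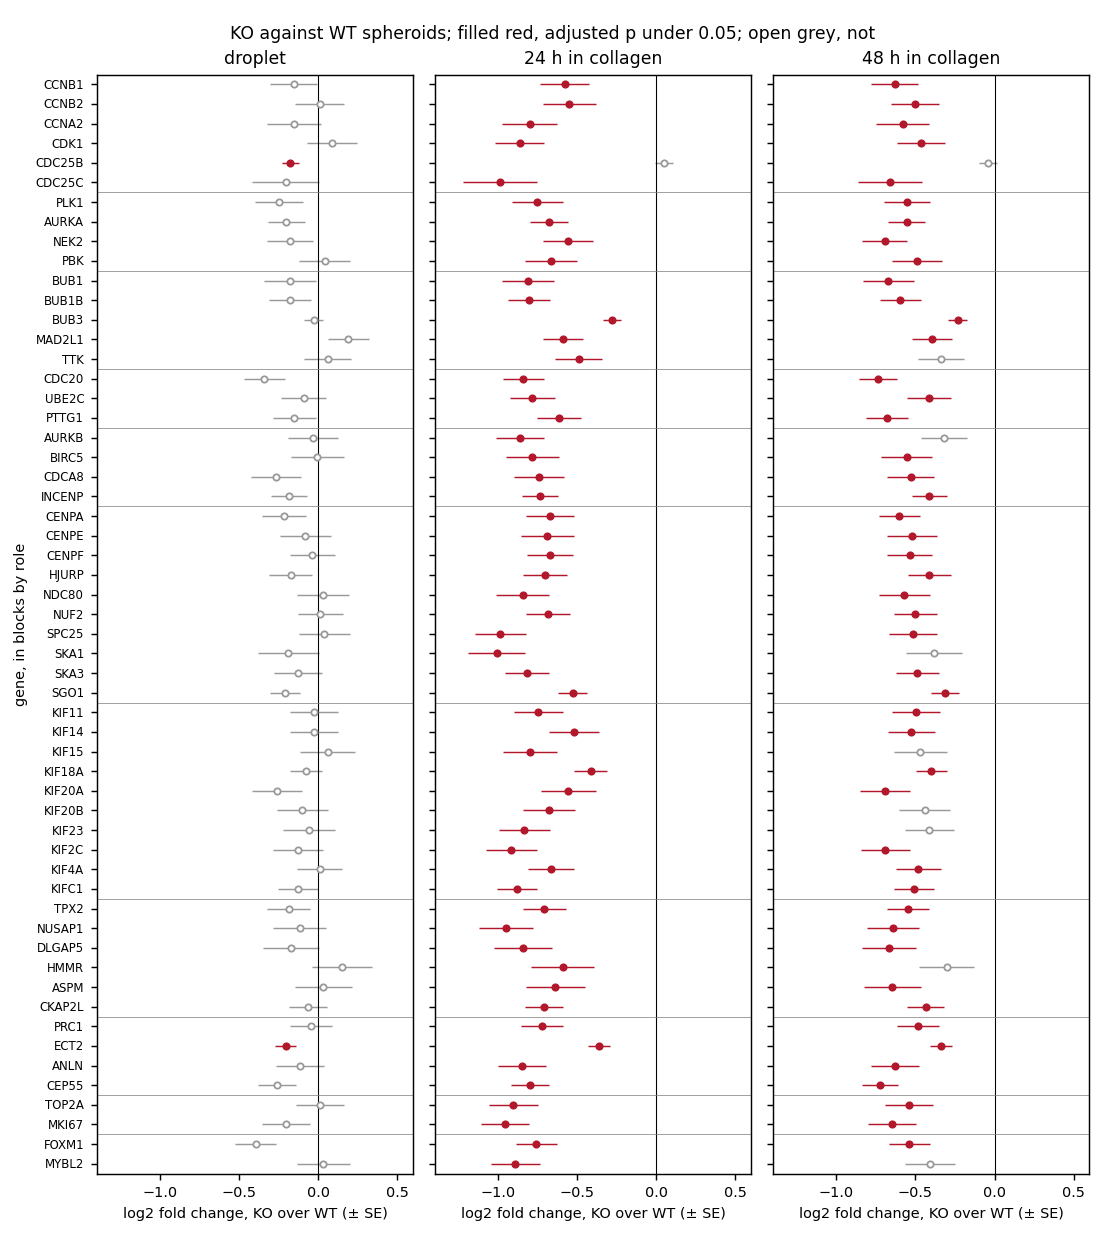
Log2 fold change of KO over WT spheroids with its SE, for the 56 genes in blocks by role, in droplets, at 24 h and at 48 h in collagen; red points passed an adjusted p of 0.05 and open grey points did not. In droplets 42 of 56 points lie left of 0 and 2 are red, and at 24 h 55 of 56 lie left of 0 and are red.

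Differences and changes given from here on are log2 fold changes, KO over WT or the later condition over the earlier one, with adjusted p-values from the same edgeR test. Role medians at 24 h in KO against WT ran from -0.59 for the 5 checkpoint genes to -0.93 for the 2 genes of chromosome structure, TOP2A and MKI67. All 10 kinetochore genes, all 10 kinesins, all 6 spindle microtubule genes and all 4 genes of the chromosomal passenger complex were lower in KO, against 15.7% of all genes. A single gene passed a 2-fold difference, SKA1, a kinetochore protein that holds on to microtubule ends. At the small end stood BUB3, a checkpoint protein, with -0.28 (SE 0.0586, adjusted p = 0.00106), and ECT2, the activator of RhoA at the division plane, with -0.36 (SE 0.0679, adjusted p = 0.000385). ECT2 was also 1 of the 2 genes called lower in KO droplets, with -0.21 (SE 0.0679, adjusted p = 0.0381), together with CDC25B at -0.18 (SE 0.0560, adjusted p = 0.0327). Neither was called without WT droplet replicate 2 or 3, KO droplet replicate 1 or 2, or KO 24 h replicate 2 or 3. ECT2 was also not called without WT droplet replicate 1, KO droplet replicate 3 or KO 48 h replicate 2, nor CDC25B without KO 24 h replicate 1.

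Over time most of the 56 genes were highest at 48 h, and they differed in what came before it. Their summed level in KO spheroids was 4087 ± 647 CPM in droplets, 3272 ± 169 CPM at 24 h and 5927 ± 448 CPM at 48 h (SD, n = 3 each). In WT spheroids it was 4384 ± 541, 5335 ± 814 and 8537 ± 655 CPM at the same times. In KO spheroids at 24 h against droplets, 24 genes were lower and 2 higher, against 25.7% and 25.5% of all genes, with a median log2 fold change of -0.29. In WT spheroids 7 were lower and 27 higher, against 28.7% and 27.8% of all genes, with a median of 0.34. The share of all genes that passed at this step was thus about as large in each direction. The mitochondrially encoded share of counts moved with the conditions too, at 0.761% to 1.39% in droplets, 2.17% to 2.42% at 24 h and 2.37% to 3.06% at 48 h in KO. In WT it was 1.70% to 2.13%, 1.93% to 2.24% and 2.59% to 3.51%, and its part in the results was not tested. From 24 h to 48 h 50 genes rose in KO spheroids and 0 fell, against 2.07% of all genes higher, with a median of 0.83. Over the same day 43 rose in WT spheroids and 1 fell, against 6.32% of all genes higher and 6.88% lower, with a median of 0.62. All 3 libraries at 48 h lay above all 3 at 24 h in 55 genes in KO, against 11.1% of all genes, and in 48 genes in WT, against 16.2%. Without KO droplet replicate 3, 15 genes were lower in KO spheroids at 24 h than in droplets.

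**Figure D2:**
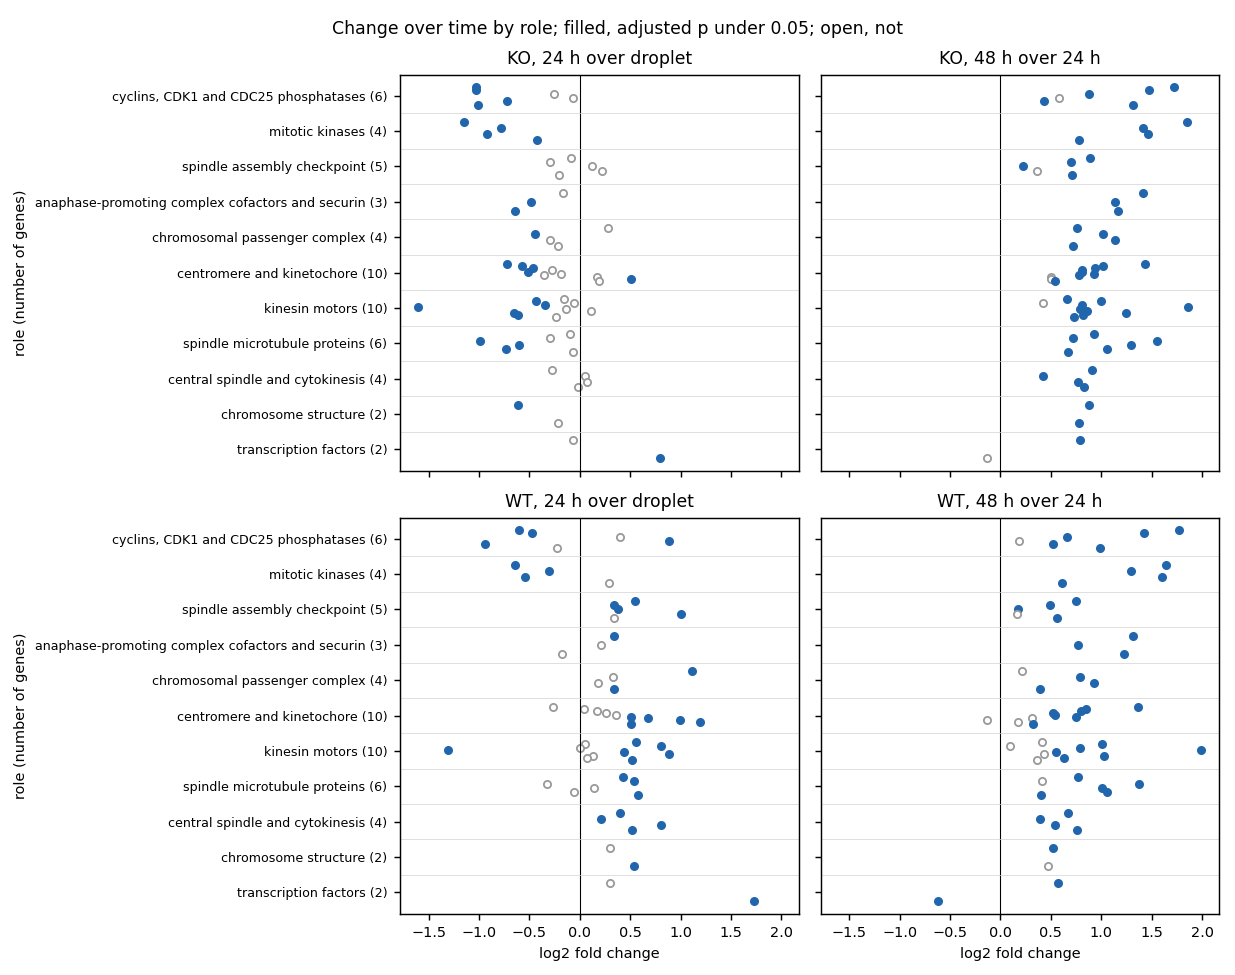
Log2 fold change over time for the 56 genes by role, for 24 h over droplet (left) and 48 h over 24 h (right), in KO (top) and WT (bottom); filled points passed an adjusted p of 0.05. At left the WT points lie on both sides of 0, with PLK1, AURKA, NEK2 and the B cyclins to the left and most checkpoint genes to the right, and at right nearly all points lie right of 0.

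The courses can be counted from both steps. In KO spheroids 24 genes were lower at 24 h and then rose, against 1.03% of all genes, and 26 did not pass at 24 h and then rose, against 0.822%. SKA3 and MYBL2 were higher at 24 h and then did not pass, a course of 24.0% of all genes, and CDK1, MAD2L1, SKA1 and KIF15 passed neither step, a course of 47.7%. In WT spheroids 14 genes were higher at 24 h and rose again, against 1.33% of all genes, and 22 did not pass at 24 h and then rose, against 2.05%. A further 12 were higher at 24 h and then did not pass, against 22.4%, and 7 were lower at 24 h and then rose, against 2.94%. MYBL2 was higher at 24 h and then fell, a course of 4.13% of all genes. The 7 with the dip in WT were CCNB1, CCNB2, CDC25B, PLK1, AURKA, NEK2 and KIF20A, and all 7 dipped in KO as well. Both steps share the 24 h libraries, so they are not independent. Without WT 24 h replicate 1, 37 genes were higher in WT at 24 h than in droplets and 31 rose from 24 h to 48 h.

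**Figure D3:**
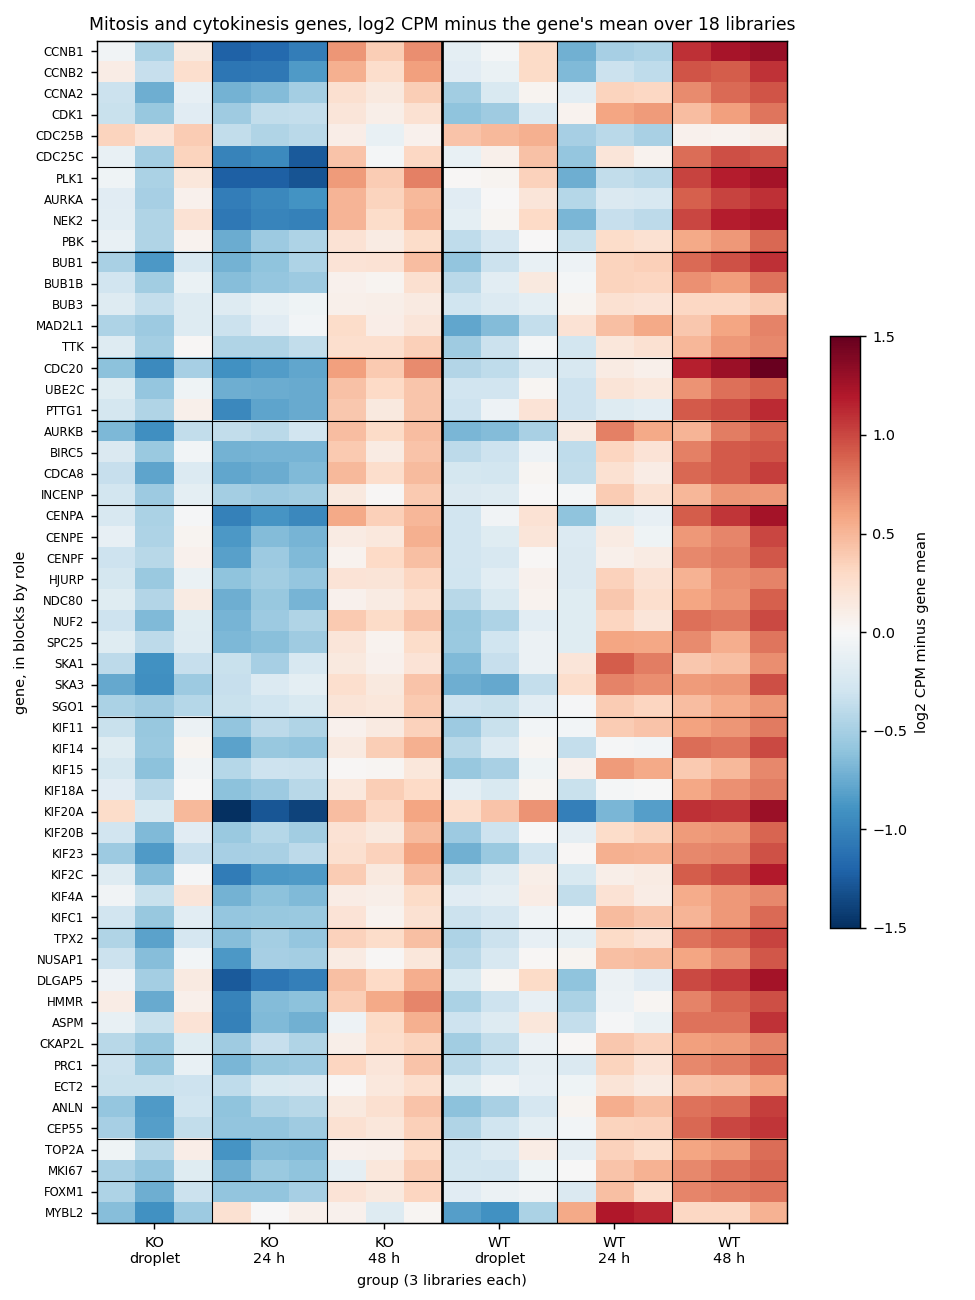
Level of each of the 56 genes in each of the 18 libraries, as log2 CPM minus the gene's mean over all libraries, with genes in blocks by role and 3 libraries per group. KO libraries at 24 h are blue for nearly all genes, WT libraries at 48 h are red for nearly all, and the KO droplet and WT droplet libraries are mostly on the blue side.

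Among the cyclins and their switches, CCNB1, cyclin B1, marked the course with a dip most plainly. In KO spheroids CCNB1 had 126, 93.8 and 145 CPM in droplets, 56.3, 58.3 and 63.9 CPM at 24 h and 207, 169 and 213 CPM at 48 h. In WT spheroids it had 118, 128 and 159.8 CPM in droplets, 79.7, 92.3 and 94.97 CPM at 24 h and 280.2, 308 and 324 CPM at 48 h. In both genotypes the 24 h libraries lay below the droplet libraries and the 48 h libraries above them, and no 2 of the 3 conditions overlapped. The dip was -1.03 (SE 0.156, adjusted p = 9.20e-05) in KO and -0.60 (SE 0.153, adjusted p = 0.00397) in WT, and the rise that followed was 1.72 in KO. At 48 h KO libraries reached 207, 169 and 213 CPM, all below the lowest WT library, a difference of -0.63 (SE 0.149, adjusted p = 0.00644). CCNB2, cyclin B2, took the same course at a lower level. In KO it had 40.9, 29.8 and 45.2 CPM in droplets, 17.8, 17.9 and 21.0 CPM at 24 h and 54.6, 45.4 and 57.9 CPM at 48 h, and the dip and rise were -1.03 and 1.48. In WT it had 33.5, 35.2 and 46.2 CPM in droplets, 23.8, 30.2 and 28.9 CPM at 24 h and 72.5, 70.7 and 80.2 CPM at 48 h, with -0.47 and 1.43. The difference between genotypes in the dip did not pass the direct test for CCNB1 or CCNB2.

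CDK1, the kinase the B cyclins activate, did not share the dip. In KO spheroids CDK1 had 97.9, 83.7 and 109.9 CPM in droplets, 85.8, 96.1 and 97.0 CPM at 24 h and 141, 132 and 145 CPM at 48 h. In WT spheroids it had 81.6, 85.3 and 107 CPM in droplets, 128, 187 and 192 CPM at 24 h and 171, 189.7 and 215 CPM at 48 h. In WT the 24 h libraries stood above the droplet libraries and already overlapped those at 48 h, while in KO the 24 h libraries were level with the droplets. CDK1 was -0.86 (SE 0.155, adjusted p = 0.00106) in KO against WT at 24 h and 0.89 (SE 0.155, adjusted p = 0.000234) in WT at 24 h against droplets. CDC25C, a phosphatase that activates CDK1, was one of the least abundant of the 56. It had 4.78, 4.93 and 4.01 CPM in KO at 24 h, against 6.38, 10.8 and 9.88 CPM in WT, a difference of -0.99 (SE 0.233, adjusted p = 0.00474). All KO libraries were below all WT libraries, and the WT libraries were spread over a wide range. An exon of FAM53C lies opposite CDC25C, and no source used here says whether counting used strand, so the value of CDC25C is uncertain.

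CDC25B, the phosphatase thought to act first at mitotic entry, stood apart from the other 55. In KO spheroids it had 177, 162 and 184 CPM in droplets, 109, 103 and 106 CPM at 24 h and 151, 129.9 and 148 CPM at 48 h. In WT spheroids it had 189, 198 and 204 CPM in droplets, 99.7, 107 and 101 CPM at 24 h and 147, 145 and 149 CPM at 48 h. It was highest in droplets in both genotypes, and the KO and WT libraries overlapped at 24 h and at 48 h. Its fold change at 48 h against droplets was -0.29 (SE 0.0565, adjusted p = 0.000219) in KO and -0.42 (SE 0.0564, adjusted p = 1.47e-06) in WT, the only 1 of the 56 genes called lower in either. At the same comparison 46 genes were higher in KO, against 25.8% of all genes, and 55 were higher in WT, against 27.7%.

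**Figure D4:**
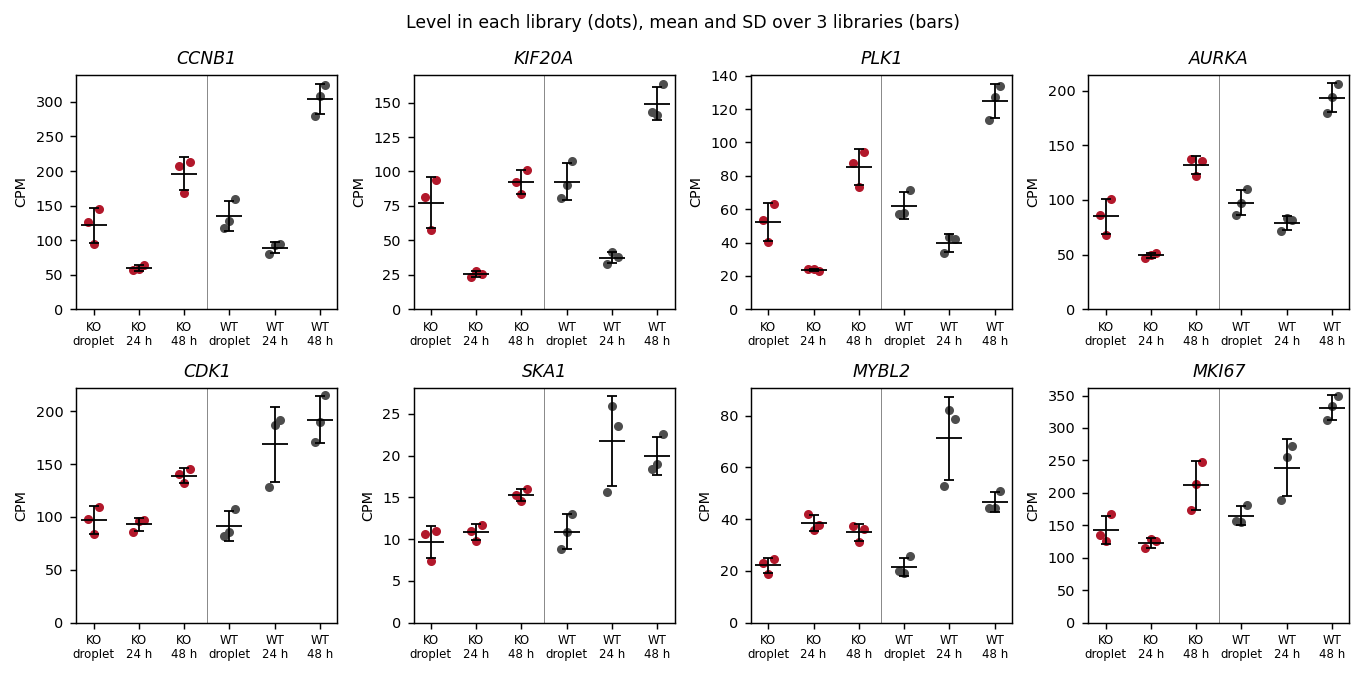
Level in CPM of 8 genes in each of the 18 libraries (dots), with the mean and SD over 3 libraries (bars), KO in red and WT in grey. CCNB1, KIF20A, PLK1 and AURKA dip at 24 h in both genotypes, CDK1, SKA1, MYBL2 and MKI67 are higher at 24 h than in droplets in WT, and KO lies under WT at 24 h in all 8.

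PLK1, AURKA, NEK2 and PBK are 4 of the mitotic kinases among the 56. At 24 h against droplets all 4 were lower in KO and 3 in WT, beside 25.7% and 28.7% of all genes. Other kinases among the 56 did not share this, since CDK1, BUB1, TTK and AURKB were not called lower in either genotype. PLK1, the kinase that drives centrosome maturation and much of mitotic progress, had 53.5, 40.5 and 63.0 CPM in droplets, 24.1, 24.0 and 22.8 CPM at 24 h and 87.6, 73.3 and 94.5 CPM at 48 h in KO spheroids. It had 57.0, 57.7 and 71.5 CPM in droplets, 33.8, 43.3 and 42.3 CPM at 24 h and 113, 127 and 134 CPM at 48 h in WT spheroids. Each 24 h group lay below its droplet group and each 48 h group above it. The dip was -1.15 (SE 0.160, adjusted p = 3.53e-05) in KO and -0.64 (SE 0.152, adjusted p = 0.00237) in WT, and the rise was 1.85 (SE 0.159, adjusted p = 1.14e-05) in KO and 1.65 in WT. AURKA, the centrosomal Aurora kinase, had 46.9, 49.5 and 51.7 CPM in KO at 24 h, against 71.9, 83.2 and 81.9 CPM in WT, a difference of -0.68 (SE 0.120, adjusted p = 0.000702). Its dip was -0.78 in KO and -0.30 in WT. The difference between genotypes in the dip did not pass the direct test for PLK1 or AURKA. NEK2, whose promoter is printed above, had 14.9, 15.8 and 15.6 CPM in KO at 24 h, against 19.5, 24.8 and 23.9 CPM in WT, and 44.9, 38.2 and 45.0 CPM in KO at 48 h, against 63.0, 71.0 and 73.6 CPM in WT. The groups did not overlap at either time, and the difference was -0.56 (SE 0.160, adjusted p = 0.0160) at 24 h and -0.70 (SE 0.142, adjusted p = 0.00197) at 48 h. PBK, a mitotic kinase of unsettled role, dipped in KO (-0.42) and gave a log2 fold change of 0.29 in WT, which did not pass. The difference between these 2 changes of PBK did not pass either.

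The 5 genes of the spindle assembly checkpoint, which delays anaphase until every kinetochore is attached, had no called dip. At 24 h against droplets 0 of the 5 passed in either direction in KO spheroids, and 4 were higher in WT spheroids, beside 27.8% of all genes. The difference between those changes passed in MAD2L1 alone of the 5, with -0.78 (SE 0.182, adjusted p = 0.0206). BUB1, a kinetochore kinase, had 68.2, 52.4 and 80.9 CPM in droplets, 58.2, 62.8 and 69.0 CPM at 24 h and 109.6, 111 and 131 CPM at 48 h in KO. It had 63.3, 76.1 and 88.4 CPM in droplets, 90.8, 120.2 and 122 CPM at 24 h and 171, 185 and 203 CPM at 48 h in WT. In WT the 3 conditions did not overlap and rose in steps, while in KO the libraries at 24 h fell within the range of the droplets. BUB1 was -0.81 (SE 0.166, adjusted p = 0.00266) in KO against WT at 24 h and -0.67 (SE 0.162, adjusted p = 0.00738) at 48 h. BUB1B, which restrains CDC20, had 36.7, 38.0 and 38.9 CPM in KO at 24 h, against 55.7, 71.7 and 71.2 CPM in WT, a difference of -0.81 (SE 0.134, adjusted p = 0.000440). MAD2L1, which also binds CDC20, was the steepest of the group in WT at 24 h against droplets, with 1.00 (SE 0.129, adjusted p = 7.73e-06), and gave 0.22 (SE 0.129, adjusted p = 0.172) in KO. TTK, the kinase that recruits the checkpoint proteins, was -0.49 (SE 0.148, adjusted p = 0.0215) in KO against WT at 24 h, and its -0.34 (SE 0.143, adjusted p = 0.0895) at 48 h did not pass.

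CDC20, UBE2C and PTTG1 act at the anaphase-promoting complex. CDC20, its activator, had 59.8, 47.4 and 64.8 CPM in droplets, 48.9, 51.2 and 53.4 CPM at 24 h and 141, 120.1 and 149.5 CPM at 48 h in KO spheroids. It had 67.7, 70.3 and 79.7 CPM in droplets, 77.8, 100.2 and 97.0 CPM at 24 h and 205, 223 and 256 CPM at 48 h in WT spheroids. The 48 h libraries of both genotypes stood well clear of the earlier ones, and CDC20 gave the largest rise of the 56 at 48 h against droplets, 1.26 (SE 0.127, adjusted p = 1.29e-06) in KO and 1.65 (SE 0.126, adjusted p = 3.96e-08) in WT. It was also the gene with the largest difference between genotypes at 48 h, -0.74 (SE 0.123, adjusted p = 0.000489). UBE2C, the ubiquitin-conjugating enzyme of the complex, had 44.0, 43.7 and 43.3 CPM in KO at 24 h, against 59.2, 83.9 and 82.1 CPM in WT, a difference of -0.78 (SE 0.144, adjusted p = 0.00107). PTTG1, securin, which is destroyed to release the chromatids, had 81.6, 68.0 and 82.1 CPM in KO at 48 h, against 116, 121 and 134 CPM in WT, a difference of -0.68 (SE 0.133, adjusted p = 0.00162). The KO libraries of both genes lay below the WT libraries without overlap.

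The chromosomal passenger complex, which corrects faulty attachments and later guides the division plane, has AURKB as its kinase. AURKB had 20.6, 17.5 and 25.5 CPM in droplets, 25.6, 24.9 and 26.9 CPM at 24 h and 45.3, 40.3 and 45.5 CPM at 48 h in KO spheroids. It had 20.4, 20.9 and 23.6 CPM in droplets, 36.3, 55.6 and 48.7 CPM at 24 h and 46.8, 56.1 and 60.7 CPM at 48 h in WT spheroids. In WT the 24 h libraries were above the droplets and overlapped those at 48 h, and in KO the main step came after 24 h. The difference between genotypes was -0.86 (SE 0.151, adjusted p = 0.000640) at 24 h, and at 48 h it was -0.32 (SE 0.146, adjusted p = 0.117), which did not pass. BIRC5, survivin, had 37.9, 38.4 and 38.5 CPM in KO at 24 h, against 47.8, 77.7 and 71.8 CPM in WT, a difference of -0.78 (SE 0.168, adjusted p = 0.00346). CDCA8, borealin, had 26.1, 26.7 and 28.2 CPM in KO at 24 h, against 34.5, 52.3 and 48.4 CPM in WT, a difference of -0.74 (SE 0.160, adjusted p = 0.00319). In both genes WT 24 h replicate 1 lay nearer to the KO libraries than the other WT libraries did.

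At the centromere and kinetochore, the largest difference between genotypes was that of SKA1. SKA1 had 10.58, 7.39 and 10.9 CPM in droplets, 10.96, 9.81 and 11.7 CPM at 24 h and 15.3, 14.51 and 16.1 CPM at 48 h in KO spheroids. It had 8.79, 10.9 and 13.1 CPM in droplets, 15.7, 26.0 and 23.6 CPM at 24 h and 18.4, 19.0 and 22.6 CPM at 48 h in WT spheroids. KO and WT did not overlap at 24 h, where the difference was -1.01 (SE 0.181, adjusted p = 0.000665), and at 48 h it was -0.38 (SE 0.179, adjusted p = 0.121) and did not pass. SPC25, a subunit of the NDC80 complex that grips microtubules, had 6.87, 7.08 and 7.60 CPM in KO at 24 h, against 9.64, 16.5 and 16.4 CPM in WT, a difference of -0.99 (SE 0.161, adjusted p = 0.000168). Replicate 1 stood well under the other WT libraries. CENPA, the histone H3 variant that marks the centromere, gave a dip of -0.72 (SE 0.150, adjusted p = 0.000502) in KO and rose from 24 h to 48 h in both genotypes, by 1.43 in KO and 1.36 in WT. CENPA had 21.6, 18.6 and 20.6 CPM in KO at 48 h, against 27.4, 30.6 and 34.6 CPM in WT, without overlap. Part of a CENPA exon is shared with SLC35F6 on the same strand, which leaves its value uncertain. CENPE, a kinetochore motor that brings chromosomes to the spindle equator, had 44.2, 51.0 and 49.2 CPM in KO at 24 h, against 69.2, 87.2 and 76.6 CPM in WT, a difference of -0.69 (SE 0.166, adjusted p = 0.00705). SKA3, the partner of SKA1, was the only kinetochore gene of the 10 that rose in KO at 24 h against droplets, with 0.50 (SE 0.149, adjusted p = 0.00972), and it rose by 1.20 in WT.

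Of the kinesins, KIF20A, a motor of the central spindle, dipped and rose the most. KIF20A had 81.4, 57.3 and 93.7 CPM in droplets, 23.2, 27.6 and 25.5 CPM at 24 h and 92.7, 83.4 and 101 CPM at 48 h in KO spheroids. It had 80.5, 89.9 and 107 CPM in droplets, 33.1, 41.6 and 37.8 CPM at 24 h and 143, 141 and 163 CPM at 48 h in WT spheroids. The 24 h libraries of both genotypes were far under all others, and at 48 h the KO libraries returned to the level of the droplets while the WT libraries passed it. Its dip was -1.60 (SE 0.170, adjusted p = 3.28e-06) in KO and -1.30 (SE 0.164, adjusted p = 1.12e-05) in WT, and at 48 h against droplets it was 0.25 (SE 0.158, adjusted p = 0.202) in KO, which did not pass, and 0.69 (SE 0.156, adjusted p = 0.00188) in WT. The difference between genotypes in these changes did not pass the direct test, for the dip or for 48 h against droplets. Exons of BRD8 and CDC23 lie opposite KIF20A, so without a known strand setting its values are uncertain. KIF2C had 41.2, 46.8 and 47.4 CPM in KO at 24 h, against 72.3, 90.7 and 92.5 CPM in WT, and the difference of -0.92 (SE 0.162, adjusted p = 0.000946) was the largest among the kinesins. KIFC1, a minus-end motor that bundles microtubules at the spindle poles, had 49.2, 49.6 and 49.9 CPM in KO at 24 h, against 73.4, 102 and 98.1 CPM in WT, a difference of -0.88 (SE 0.127, adjusted p = 0.000144). KIF11, whose promoter is printed above, had 80.0, 91.4 and 87.8 CPM in KO at 24 h, against 117, 156 and 162 CPM in WT, a difference of -0.75 (SE 0.154, adjusted p = 0.00266), and it was 0.56 (SE 0.152, adjusted p = 0.00646) in WT at 24 h against droplets. KIF23, which with a partner bundles the central spindle, gave 0.11 (SE 0.164, adjusted p = 0.618) in KO at 24 h against droplets, which did not pass, and 0.88 (SE 0.161, adjusted p = 0.000333) in WT. The difference between these 2 changes of KIF23 did not pass.

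Among proteins that build the spindle, DLGAP5, which stabilises kinetochore fibres, dipped in KO and not in WT beyond the threshold. DLGAP5 had 95.9, 70.7 and 111 CPM in droplets, 42.0, 47.7 and 49.8 CPM at 24 h and 138, 124 and 148 CPM at 48 h in KO spheroids. It had 86.5, 103 and 123 CPM in droplets, 66.3, 94.7 and 89.6 CPM at 24 h and 201, 209.9 and 239.5 CPM at 48 h in WT spheroids. Its 24 h libraries in KO lay below all others, and its change at 24 h against droplets was -0.99 (SE 0.183, adjusted p = 0.000518) in KO and -0.32 (SE 0.177, adjusted p = 0.140) in WT. The difference between these 2 changes was -0.67 (SE 0.254, adjusted p = 0.127) and did not pass. NUSAP1, a microtubule bundling protein, had 42.7, 54.8 and 54.3 CPM in KO at 24 h, against 79.7, 106 and 108 CPM in WT, a difference of -0.95 (SE 0.169, adjusted p = 0.00102). NUSAP1 shares 50.3% of its 75-base stretches with an overlapping gene on the same strand that had 147 counts in all, against 37212 for NUSAP1. ASPM, a spindle pole protein, had 98.4, 126 and 149.5 CPM in KO at 48 h, against 182, 183 and 219 CPM in WT, a difference of -0.65 (SE 0.180, adjusted p = 0.0169). HMMR, a spindle protein also known as a hyaluronan receptor, was -0.59 in KO against WT at 24 h, and its -0.30 (SE 0.176, adjusted p = 0.215) at 48 h did not pass.

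The 4 genes of the central spindle and cytokinesis were lower in KO at 24 h and 48 h in collagen, against 15.7% and 15.1% of all genes. All 4 were higher in WT at 24 h than in droplets, against 27.8%. ANLN, anillin of the contractile ring, had 181, 151 and 221 CPM in droplets, 179, 199 and 203 CPM at 24 h and 302, 322 and 364 CPM at 48 h in KO spheroids. It had 178, 193 and 228 CPM in droplets, 279.6, 395 and 372 CPM at 24 h and 478, 490.3 and 559.8 CPM at 48 h in WT spheroids. In WT the 3 conditions did not overlap and went up in steps, whereas in KO the droplet and 24 h libraries overlapped. The direct test of a difference between the changes at 24 h against droplets did not pass for ANLN. ANLN was -0.85 (SE 0.152, adjusted p = 0.00100) in KO against WT at 24 h and -0.63 (SE 0.150, adjusted p = 0.00679) at 48 h. A short exon stretch of KIAA0895 lies opposite ANLN. CEP55, which recruits the machinery of the final cut, had 101, 98.0 and 111 CPM in KO at 48 h, against 158, 173 and 182 CPM in WT, a difference of -0.72 (SE 0.115, adjusted p = 0.000294). PRC1, which crosslinks the antiparallel microtubules of the central spindle, had 98.8, 107 and 109 CPM in KO at 24 h, against 137, 199 and 183 CPM in WT, a difference of -0.73 (SE 0.134, adjusted p = 0.00117). PRC1 shares 47.8% of its 75-base stretches with an overlapping gene on the same strand, so part of its reads may have been assigned there.

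TOP2A and MKI67 act on chromosome structure. TOP2A, the topoisomerase that untangles sister chromatids, had the highest mean CPM of the 56. It had 427, 336 and 477 CPM in droplets, 242, 284 and 284 CPM at 24 h and 469, 472 and 548 CPM at 48 h in KO spheroids. It had 362, 387 and 483 CPM in droplets, 408, 569 and 538 CPM at 24 h and 672, 698 and 797 CPM at 48 h in WT spheroids. The KO libraries at 24 h were the lowest of all, and the change at 24 h against droplets was -0.62 (SE 0.154, adjusted p = 0.00431) in KO and 0.30 (SE 0.153, adjusted p = 0.115) in WT. MKI67, the protein behind the Ki-67 index, had 114, 129.5 and 125 CPM in KO at 24 h, against 189, 255 and 273 CPM in WT, a difference of -0.96 (SE 0.152, adjusted p = 0.000437). At 48 h it had 173, 214 and 248 CPM in KO, against 312, 333 and 349 CPM in WT, a difference of -0.65 (SE 0.150, adjusted p = 0.00567). The groups did not overlap at either time, and in droplets the difference was -0.20 (SE 0.151, adjusted p = 0.424).

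Both transcription factors were lower in KO at 24 h but differed in course. MYBL2 had 22.9, 18.9 and 24.4 CPM in droplets, 41.8, 35.8 and 37.6 CPM at 24 h and 37.3, 31.2 and 36.3 CPM at 48 h in KO spheroids. It had 20.1, 19.0 and 25.6 CPM in droplets, 52.6, 82.0 and 78.8 CPM at 24 h and 44.3, 44.2 and 51.0 CPM at 48 h in WT spheroids. Its mean was highest at 24 h in both genotypes, though in KO the 24 h and 48 h libraries overlapped, and in WT it was the 1 gene of the 56 that fell from 24 h to 48 h, with -0.62 (SE 0.153, adjusted p = 0.0160). MYBL2 gave the largest rise of the 56 at 24 h against droplets, 0.80 (SE 0.164, adjusted p = 0.000928) in KO and 1.72 (SE 0.162, adjusted p = 3.79e-07) in WT. Its fall in WT was not called without WT 24 h replicate 2 or 3, or without WT 48 h replicate 1 or 2. FOXM1 had 60.3, 49.8 and 66.3 CPM in droplets, 55.0, 54.8 and 58.8 CPM at 24 h and 95.7, 91.9 and 104 CPM at 48 h in KO spheroids. It had 73.9, 78.1 and 80.1 CPM in droplets, 71.6, 114 and 99.8 CPM at 24 h and 138, 141 and 144 CPM at 48 h in WT spheroids. It was highest at 48 h in both genotypes, and the KO libraries lay under the WT libraries in all 3 conditions. FOXM1 was -0.76 (SE 0.131, adjusted p = 0.000640) in KO against WT at 24 h, -0.54 (SE 0.128, adjusted p = 0.00575) at 48 h and -0.40 (SE 0.131, adjusted p = 0.0506) in droplets, where it did not pass. An exon of ITFG2 lies opposite FOXM1, so its values are uncertain in the same way.

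Whether the change over time itself differed between genotypes was tested directly. For 24 h against droplets 14 genes had a lower change in KO than in WT and 0 a higher one, against 4.09% of all genes lower, with a median difference of -0.65. It was 36 with DESeq2, which called 1783 of all genes in either direction, against 565 higher and 697 lower by edgeR. The count was 52 without the filter on low counts, and at an unadjusted p under 0.05 it was 49, beside 2041 of the 17030 genes. That count also depended on single libraries, being 42 without KO droplet replicate 2, 39 without WT 24 h replicate 1 and 36 without WT droplet replicate 3, and 1 without WT droplet replicate 1 or 2 or WT 24 h replicate 2 or 3. Without WT 48 h replicates 1 and 2 and KO 48 h replicate 1, each in turn, it was 9, 8 and 9. It was also 4 and 2 without KO droplet replicates 1 and 3, and 2, 6 and 7 without KO 24 h replicates 1, 2 and 3. The largest single difference was that of SPC25, -1.03 (SE 0.228, adjusted p = 0.0130). For 48 h against droplets 0 genes passed in either direction, against 2.78% of all genes lower, although 30 were lower at an unadjusted p under 0.05, beside 1953 of the 17030 genes, and DESeq2 called 7, and the median difference was -0.44. That count was 11 without KO droplet replicate 2, 8 without WT droplet replicate 3, 6 without WT 24 h replicate 1 and 1 without WT 48 h replicate 1. For 48 h against 24 h 0 passed by edgeR and 0 by DESeq2, 4 were higher at an unadjusted p under 0.05, beside 3.61% of all genes, and the median was 0.21.

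Genes of DNA replication and S phase were set beside the mitotic genes, since they act earlier in the cycle. Of 46 such genes 45 were lower in KO at 24 h and 34 at 48 h, against 15.7% and 15.1% of all genes, with medians of -0.56 and -0.38. Their course over time was another. At 24 h against droplets 40 were higher in KO and 46 in WT, against 25.5% and 27.8% of all genes, with medians of 0.79 and 1.35. From 24 h to 48 h 10 fell in KO and 34 in WT, against 1.73% and 6.88% of all genes, with 0 rising in either. MCM10, a replication initiation factor, rose by 1.20 in KO and 1.99 in WT at 24 h against droplets. CCNE2, cyclin E2, fell by 0.80 in KO and by 0.96 in WT, on the log2 scale, from 24 h to 48 h. The ratio of the summed mitotic to the summed replication level was 2.06 ± 0.278 in droplets, 1.05 ± 0.0263 at 24 h and 2.26 ± 0.0928 at 48 h in KO spheroids (SD, n = 3 each). It was 2.20 ± 0.171, 1.11 ± 0.0293 and 2.45 ± 0.0842 in WT spheroids. The ratio was thus lowest at 24 h in both genotypes, and its libraries at 24 h did not overlap those of the other conditions. Among the mitotic genes 6 did not pass as higher at 48 h than at 24 h in either genotype. They were MYBL2, SKA1, SKA3, KIF15, CDK1 and MAD2L1. Of all genes, 2.07% passed as higher over this step in KO and 6.32% in WT. Of the 6, only MYBL2 was called lower, in WT. For SKA1, SKA3, KIF15, CDK1 and MAD2L1 all 3 KO libraries at 48 h lay above all 3 at 24 h. In WT the libraries of these genes at 24 h and 48 h overlapped.

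**Figure D5:**
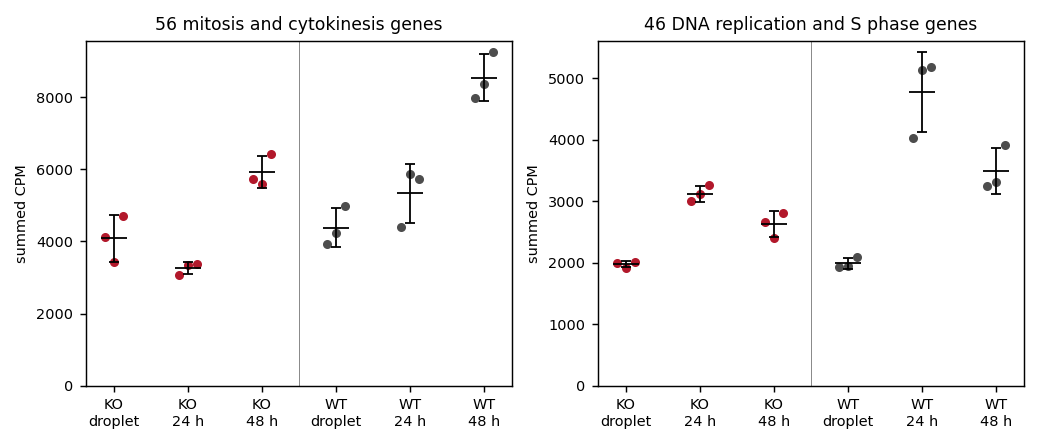
Summed CPM of the 56 mitosis and cytokinesis genes (left) and of 46 DNA replication and S phase genes (right) in each library (dots), with mean and SD over 3 libraries (bars), KO in red and WT in grey. Both sums are lower in KO than in WT at 24 h and 48 h, the mitotic sum is highest at 48 h, and the replication sum is highest at 24 h.

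Outside the 56, a list of 100 further genes of mitosis, among them cohesin, condensin, kinetochore and centrosome genes, was set beside them. In KO against WT 72 were lower and 2 higher at 24 h, 56 lower and 2 higher at 48 h, and 5 lower and 3 higher in droplets. Over all genes 15.7% were lower and 13.7% higher at 24 h, 15.1% and 14.4% at 48 h, and 9.70% and 7.70% in droplets. CDCA3, a mitotic entry factor, was -0.89 (SE 0.200, adjusted p = 0.00402) in KO against WT at 24 h. Of the 8 condensin genes, which compact mitotic chromosomes, all 8 were lower in KO at 24 h, led by NCAPG at -0.83 (SE 0.134, adjusted p = 0.000423). All 8 were also higher in WT at 24 h than in droplets, against 27.8% of all genes. SPC24, the partner of SPC25, was -1.04 (SE 0.137, adjusted p = 1.68e-05) in KO against WT at 24 h. The 17 genes of the core anaphase-promoting complex and its regulators counted 6 lower and 1 higher in KO at 24 h, with a median of -0.12. From 24 h to 48 h 31 of the 100 rose and 1 fell in KO, against 2.07% and 1.73% of all genes. In WT 27 rose and 11 fell, against 6.32% and 6.88%. TROAP, a spindle-associated protein, rose by 1.34 in KO and 1.13 in WT over that day. A separate group of 17 genes of the MuvB complex, the pocket proteins and the E2F factors counted 9 lower and 1 higher in KO against WT at 24 h. E2F1, a driver of S phase genes, gave -0.64 in KO and -0.86 in WT from 24 h to 48 h.

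Levels between genes were compared per kilobase of exon, since CPM favours long genes. At 48 h TPX2, which activates AURKA on the spindle, stood highest in both genotypes, at 82.4 CPM per kb in KO spheroids and 120.3 CPM per kb in WT spheroids. CCNB1 stood at 76.7 CPM per kb in KO and 119 in WT, and TOP2A at 77.1 CPM per kb in KO and 112 in WT. CDC25C and HMMR were lowest, CDC25C with 3.404 CPM per kb in KO and 5.40 in WT, and HMMR with 4.002 CPM per kb in KO and 4.93 in WT. The order of neighbours in this list rests on the annotated exon length as well as on the counts.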

How the data were processed

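Per the labels' protocols, polyA RNA of MDA-MB-231 spheroids was read as paired 151 bp ends. The submitters' processing notes name cutadapt 2.3, FastQC 0.11.8, STAR 2.7.8a, RSEM 1.3.3, MultiQC 1.7 and DESeq2 1.42.0, with GRCh38. The authors deposited RSEM expected counts, 1 value per gene and library, all of them whole. Annotation release and strand setting: not given in the sources used here. Groups follow the genotype and treatment labels, and 4 reporter rows were left out.

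In R 4.3.3 with edgeR 4.0.16, filterByExpr (minimum count 10) kept 17030 of 62710 genes, with at least 99.9% of each library's counts. TMM scaling and 1 robust quasi-likelihood fit of 18 libraries with 1 coefficient per group (12 residual degrees of freedom) gave 12 contrasts: KO against WT in each condition, the conditions in pairs inside each genotype, and the 3 differences of those changes. P-values were adjusted by Benjamini-Hochberg over all genes tested, with a threshold of 0.05. Log2 fold changes have the first-named group on top, and their SE is the absolute value over the square root of F. Levels are CPM on TMM-scaled library sizes, summarised as mean and SD. Replicates of every group differed beyond sampling noise (chi-square per degree of freedom at least 2.97), so no library was treated as a second count of another. Such a spread does not show that they came from separate cultures. Exon lengths, overlaps and shared 75-base stretches came from GENCODE 29, and promoters from RefSeq GRCh38.p14. The scripts were tested on simulated counts. Alternatives were other scalings, no filter, DESeq2 1.42.0, a replicate block, fits of 2 groups, and each library left out.

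The members, the lists set beside them and their roles were chosen with earlier results of these data known, so no list was tested. Genes with a value for every library were the 2 of each role with the largest change in WT from 24 h to 48 h and the 2 with the largest difference between genotypes at 24 h, plus any called against the trend. For some of these, values of 1 condition are printed, while CDC25B, MAD2L1, KIF11, KIF23, PBK, HMMR, BUB3, ECT2 and SKA3 were named in addition after their values were seen. From the other lists, genes were taken by size of change, up to 4 per role and contrast.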

Additional observations from a re-analysis of the deposited data

Results flagged for a closer look

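In 14 genes the change at 24 h against droplets differed between genotypes by the direct test of that difference, being lower in KO than in WT, by edgeR's quasi-likelihood test with adjustment over all genes, beside 4.09% of all genes tested. The count was 36 with DESeq2 and 52 without the filter on low counts. Of all genes DESeq2 called 1783 in either direction, against 565 higher and 697 lower by edgeR. The log2 differences were -1.03 for SPC25, -0.88 for NDC80 and -0.70 for NUF2, which are subunits of the same kinetochore complex. They were -0.95 for CDK1 and -0.93 for MYBL2, and -0.91 for TOP2A and -0.76 for MKI67. The motors KIF15 and KIFC1 gave -0.86 and -0.75. AURKB and INCENP of the passenger complex gave -0.83 and -0.55, and MAD2L1, CKAP2L and PRC1 gave -0.78, -0.64 and -0.68. CDK1 had a mean of 92.9 ± 6.24 CPM at 24 h and 97.2 ± 13.1 CPM in droplets in KO spheroids, and 169 ± 35.5 CPM at 24 h and 91.4 ± 13.9 CPM in droplets in WT spheroids (SD, n = 3 each). The set of genes that passes varies with these settings and with the library left out, as given with the count above. A lower change in KO was also called in 34 of the 46 replication genes and in 27 of the 100 further genes of mitosis. For 48 h against droplets, where 0 of the 56 passed, these counts were 11 and 8, against 2.78% of all genes. The median difference was nevertheless -0.44 for the 56, -0.40 for the replication genes and -0.26 for the 100 further genes. It was 0.01 over all genes. The count of 0 depended on the test, since DESeq2 called 7 of the 56 lower. At an unadjusted p under 0.05 by edgeR 30 were lower, beside 1953 of the 17030 genes. A smaller difference in the 56 than in the other lists therefore cannot be read from these counts.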

How the results depend on the processing

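Of 375 calls of single genes over all comparisons, 0 turned their direction under any alternative. Calls lost numbered 0 with DESeq2 and 0 with the replicate block, 1 with DESeq2 size factors, 2 without the filter, 11 with library size alone, 19 of 361 in fits of 2 groups, and 5 to 42 with a library left out. The count of 55 genes lower in KO at 24 h was unchanged in the 6 alternatives that keep all libraries. Genes lower in KO droplets numbered 2, but 1 with library size alone, 10 without the filter, 4 with DESeq2, 4 with the replicate block, and 0 to 3 with a library left out. Genes with a lower change in KO at 24 h against droplets numbered 14, but 9, 52, 36 and 39 under the same 4 alternatives, and 1 to 42 with a library left out. For 48 h against droplets the count was 0, but 46 without the filter, 7 with DESeq2, 17 with the replicate block, and 0 to 11 with a library left out. With a library left out, genes lower in KO at 48 h numbered 23 to 54, and genes lower in KO at 24 h than in droplets 15 to 31. Genes higher in KO at 24 h than in droplets numbered 2, but 4 without the filter and 4 in fits of 2 groups, and the 1 gene that fell in WT from 24 h to 48 h was not called in fits of 2 groups. Higher differences of changes numbered 0, but 1 with library size alone for 24 h against droplets and 8 without the filter for 48 h against 24 h. The cause of these changes was not tested. How many of all genes passed without the filter or with a library left out was not counted. Over all genes, scaling by library size alone moved the share of calls that were higher, from 46.5% to 61.9% in KO against WT at 24 h and from 48.9% to 64.3% at 48 h. That share moved from 54.5% to 44.2% for 48 h against 24 h in KO, and for the difference of changes from 44.8% to 59.0% (24 h against droplets) and from 59.0% to 73.9% (48 h against droplets). The median of all genes moved by under 0.1 under each scaling. Libraries with the same replicate number did not deviate together in correlations (-0.0701 to 0.137, median 0.00746), and 7 of 18 libraries were closest to their own number. The summed level of the mitotic genes was, however, highest in replicate 3 in every group but WT 24 h. In WT 48 h it was 9257 CPM in replicate 3, against 7976 and 8378 CPM. In WT 24 h it was 5722 CPM in replicate 3 and 5884 CPM in replicate 2. Whether the numbers pair the samples in the mitotic genes was not tested, and the main fit does not use them.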
